A study of Homo sapiens with 6 samples.

Results

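IGF2R, the cation-independent mannose 6-phosphate receptor, was the measured gene among 5 that tag and carry lysosomal enzymes. The set was defined as IGF2R, the cation-dependent receptor M6PR, the phosphotransferase subunit genes GNPTAB and GNPTG, and NAGPA, which uncovers the tag. Every probe set whose RefSeq accession belonged to any of the 5 symbols was taken, and this gave 1 probe set, for IGF2R, of 1259 on the array. The other 4 genes were named by no probe set and are not analysed here. Of the 1259 probe sets, 190 carry no RefSeq accession and could not be named, so the array may hold further probes for these genes. The genes were selected on the difference of IGF2R between the groups in these same 6 arrays. That difference is therefore given as a description, with its error and no p-value.

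The cells were HCT116, an established colorectal cancer line with microsatellite instability. In the sample titles the doxycycline-switched gene is wild-type ACVR2, a type II activin receptor; the source label lists TGFBR2, ACVR2 and AIM2 together. Both groups received activin A, and 3 arrays came from cells also given doxycycline and 3 from cells without it. Dose, duration, clone number and the independence of the cultures are not given in the sources used here, so errors reflect only how these samples varied, possibly for technical reasons. No arrays without the transgene or without activin A were analysed here, so effects of the drug and of the induced gene cannot be told apart, and whether either depends on the ligand was not tested. The ACVR2A probe set, which may or may not lie within the introduced sequence, read 8.15, 8.02 and 8.08 with doxycycline and 8.25, 8.07 and 8.70 without, so its groups overlapped and it shows no induction. Its difference was -0.26, and -0.08 without replicate 3 of the cells lacking doxycycline. TGFBR2 differed by -0.35 (SE 0.21) with overlapping groups, and by -0.16 without that array. AIM2 was named by no probe set. Of 13 colon epithelial markers sought 3 were measured, and EPCAM, KRT20 and CDX2 were not among them, so the cell type could not be checked against its defining genes. MUC1, MUC2 and LGALS4 differed by -0.13, -0.02 and 0.0009 log2 units, and 7 measured markers of other cells by between -0.09 and 0.05, with PECAM1 at -0.09, CD34 at -0.06 and VCAM1 at 0.05.

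Soluble hydrolases bound for the lysosome receive a phosphate-linked N-acetylglucosamine on their mannose-rich N-glycans in the early Golgi, from the enzyme that GNPTAB and GNPTG encode. NAGPA then removes the outer sugar and exposes mannose 6-phosphate. IGF2R and M6PR bind that tag in the trans-Golgi network and hand the enzymes to endosomes; IGF2R also takes up tagged enzymes at the cell surface and clears the growth factor IGF2. Many lysosomal genes carry the letters CACGTG near their start, the core of the element read by TFEB and its relatives.

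The promoter of IGF2R is shown because it carries these letters in several copies, beside those of GAA and NEU1, lysosomal enzyme genes with copies of their own whose values differed in opposite directions. Each line gives the 250 bases before the annotated start, 5′ to 3′ on the gene's strand, from RefSeq on GRCh38.p14. Capitals mark CACGTG, which reads the same on both strands.
IGF2R, chr6:159968832-159969081, + strand: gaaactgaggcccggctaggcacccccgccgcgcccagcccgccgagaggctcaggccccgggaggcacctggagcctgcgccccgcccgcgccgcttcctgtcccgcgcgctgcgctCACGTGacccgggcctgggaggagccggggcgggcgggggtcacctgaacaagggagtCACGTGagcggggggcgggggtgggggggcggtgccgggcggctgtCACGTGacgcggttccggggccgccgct
GAA, chr17:80101331-80101580, + strand: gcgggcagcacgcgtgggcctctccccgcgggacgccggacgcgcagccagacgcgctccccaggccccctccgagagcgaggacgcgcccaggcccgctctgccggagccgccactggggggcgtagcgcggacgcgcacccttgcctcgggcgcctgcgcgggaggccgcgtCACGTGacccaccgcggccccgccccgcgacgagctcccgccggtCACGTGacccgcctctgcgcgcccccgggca
NEU1, chr6:31862822-31863071, - strand: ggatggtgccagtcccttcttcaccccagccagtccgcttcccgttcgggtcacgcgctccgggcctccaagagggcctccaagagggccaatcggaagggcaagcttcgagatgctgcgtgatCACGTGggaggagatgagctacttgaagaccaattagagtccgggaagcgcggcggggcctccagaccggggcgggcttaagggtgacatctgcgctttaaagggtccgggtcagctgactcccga
The IGF2R window held 3 copies, whose first bases lay 132, 74 and 28 bases before the start. GAA had 2 copies, with first bases 76 and 31 bases before the start, and NEU1 had 1 copy, at 126 bases. Of 35116 promoter windows of the same length, 6.34% held CACGTG and 0.0797% held at least 3 copies. IGF2R did not have the most copies among the genes described here. The window of LAMP1, a lysosomal membrane protein gene described below, held 5 copies, and LAMP1 differed by 0.03. A match describes the letters only. No binding was measured.

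IGF2R was lower on every array with doxycycline than on any array without it. Its log2 levels were 9.85, 9.77 and 9.84 for replicates 1, 2 and 3 with doxycycline, and 10.13, 10.05 and 10.27 without. The 3 values with doxycycline lay close together, and the highest of all came from replicate 3 without doxycycline. The means were 9.82 ± 0.04 with and 10.15 ± 0.11 without (SD, n = 3 each). The difference was -0.33 log2 units (SE 0.07; 95% interval -0.49 to -0.16), which is 1.26-fold higher without doxycycline (interval 1.12 to 1.41).

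**Figure D1:**
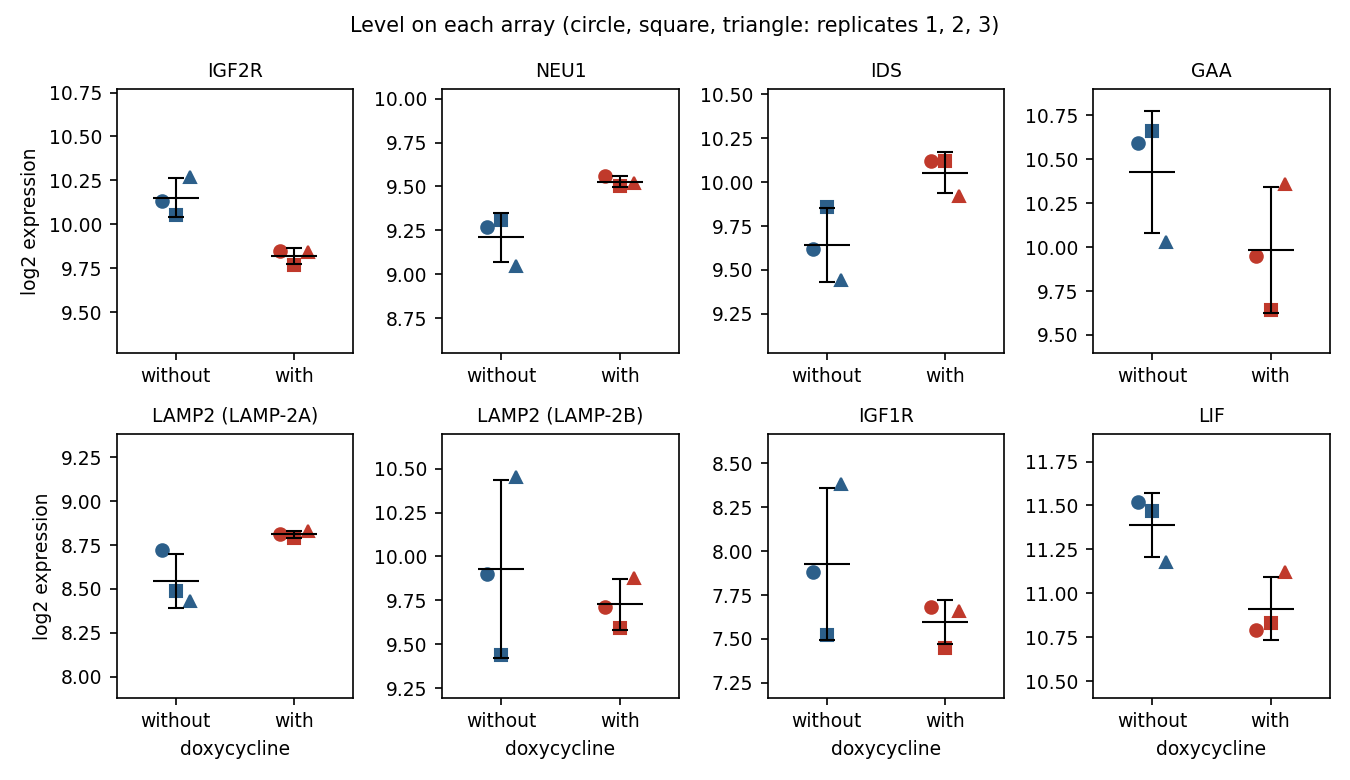
Log2 expression (vertical axis, spanning the same 1.5 log2 units in each panel) on each array without and with doxycycline for IGF2R and 7 other probe sets; circles, squares and triangles are replicates 1, 2 and 3, and black bars are the mean and SD of 3 arrays. The groups do not overlap for IGF2R, NEU1, IDS, LAMP-2A and LIF, and overlap for GAA, LAMP-2B and IGF1R.

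Replicate 3 without doxycycline stood apart from the other 5 arrays over all probe sets. Its correlations with them were 0.982 to 0.991, against 0.995 to 0.999 among the others. Without it the IGF2R difference was -0.27, and the groups were still separate because both remaining arrays without doxycycline read above 9.85. What that array contributed to the larger value was not tested beyond this.

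Set among all 1259 probe sets, the IGF2R difference ranked as number 65 from the lowest, as number 38 without the array that stood apart, and as number 102 without replicate 2 of the same group. With all 6 arrays 5.16% of probe sets were at or below it, and 9.21% lay as far from 0 or farther in either direction. All arrays with doxycycline lay below all arrays without it for 8.26% of probe sets, and 1.51% had this separation together with a difference at least as low as that of IGF2R. With limma 0% of probe sets passed an adjusted p of 0.05, IGF2R included, and the smallest adjusted p of all was 0.158. Before adjustment 98 probe sets (7.78%) had a p under 0.05. Because the choice of IGF2R used this contrast, nothing is read from these shares.

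**Figure D2:**
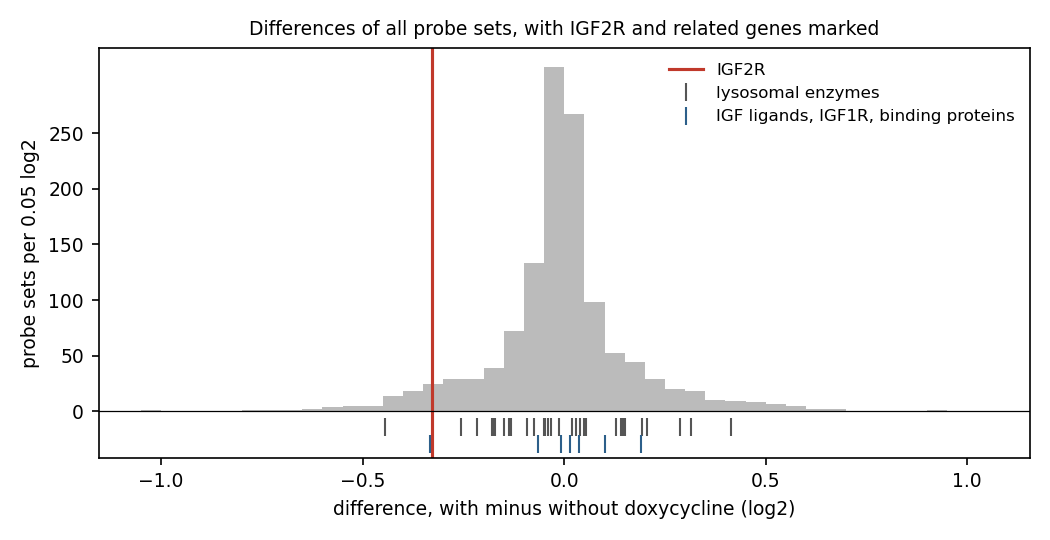
Histogram of the log2 difference, with minus without doxycycline (horizontal axis), for 1259 probe sets in steps of 0.05 (vertical axis: probe sets per step); the red line is IGF2R, and ticks under the axis are 30 lysosomal enzyme genes and 7 genes of the insulin-like growth factor system. IGF2R lies at -0.33 in the lower flank, beside the lowest tick of the growth factor genes, while the enzyme genes spread to both sides of 0.

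The lysosomal enzymes that IGF2R and M6PR carry did not share a direction. Of 41 soluble hydrolases and activators sought, 30 were measured; 14 had higher and 16 lower values with doxycycline. Their median difference was -0.02, against -0.01 over all probe sets, and 0 passed the threshold. With each array centred on its median the split was 15 to 15, and with array weights 11 to 19. The groups were separate with higher values for 6 of the 30 genes and with lower values for 0 of the 30. Over all probe sets the shares were 7.55% with higher and 8.26% with lower values. By 1 probe set a gene, as for the 30, 74 of 927 named genes were separate with higher values and 76 with lower values.

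**Figure D3:**
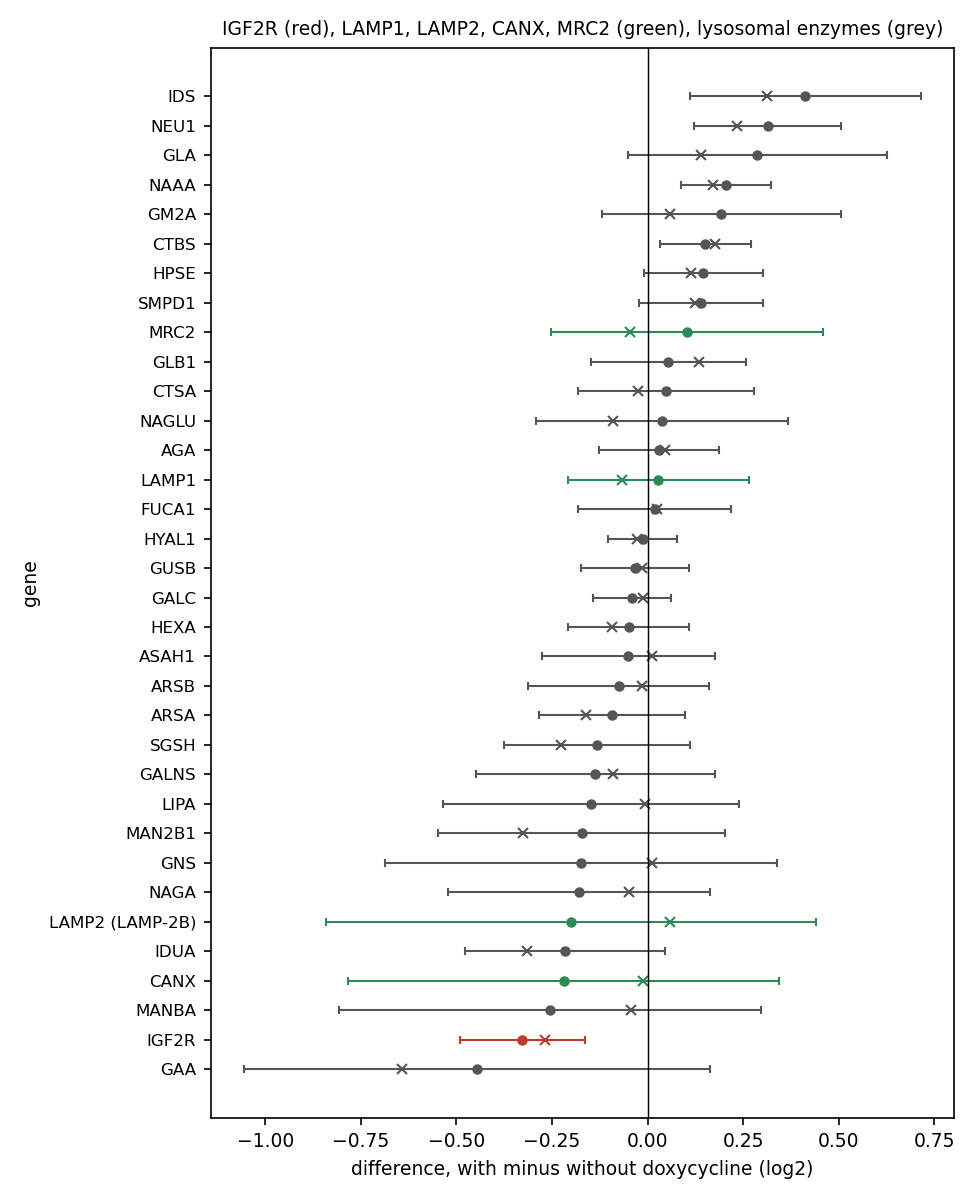
Log2 difference, with minus without doxycycline (horizontal axis), for IGF2R (red), LAMP1, LAMP2, CANX and MRC2 (green) and 29 lysosomal enzyme genes (grey), 1 probe set a gene; circles are the limma estimates from 6 arrays, bars their 95% intervals, and crosses the values when replicate 3 without doxycycline is left out. IGF2R is at -0.33 and -0.27 without that array; GAA alone is lower, with a bar that crosses 0, and IDS and NEU1 are highest.

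NEU1, the lysosomal sialidase, lay opposite to IGF2R. Its arrays read 9.56, 9.50 and 9.52 with doxycycline and 9.27, 9.31 and 9.05 without. The difference was 0.31 (SE 0.08) and 0.23 without the array that stood apart, and a further NEU1 probe set was at 0.40 (SE 0.06). That second set had the smallest p of the enzyme probe sets and did not pass (limma, adjusted p = 0.213). IDS, which removes sulphate from iduronate in heparan and dermatan sulphate, read 10.12, 10.12 and 9.92 with doxycycline and 9.62, 9.86 and 9.44 without. It differed by 0.41 (SE 0.12), or 0.31 without that array, while its other probe set was at 0.19 with overlapping groups. IDS has a pseudogene of similar sequence that may share its probes, so its signal may not be its own alone. This was not tested.

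NAAA, an acid amidase, was at 0.21 (SE 0.05), but its other probe sets were at 0.0037 and -0.03. The set at 0.0037 had a mean of 6.10, under the lower quartile of 6.88 of all probe set means, so it may be too dim to show a difference. GLA, the alpha-galactosidase lost in Fabry disease, read 10.63, 10.78 and 10.71 with doxycycline and 10.61, 10.52 and 10.12 without. The gap between its groups was narrow, and the difference of 0.29 became 0.14 without the array standing apart. HEXA, an enzyme of ganglioside breakdown, was at -0.05 with overlapping groups. CTBS, a chitobiase named after its values were seen because its groups were separate, was at 0.15. Its other probe set was at 0.08 with overlapping groups.

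GAA, the acid alpha-glucosidase lost in Pompe disease, had the lowest difference of the enzymes at -0.45 (SE 0.24). Its arrays read 9.95, 9.64 and 10.36 with doxycycline and 10.59, 10.66 and 10.03 without. The groups overlapped, since replicate 3 was highest in the first group and lowest in the second. Without replicate 3 of the cells lacking doxycycline GAA was at -0.64. ARSA, the arylsulphatase of sulphatide breakdown, was at -0.09, and GUSB, the beta-glucuronidase, at -0.03, both with overlapping groups.

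Of the 30 measured enzyme genes 20 had a promoter in the RefSeq table, with 29 windows among them, and the rest were left out. A gene was counted as holding CACGTG if any of its windows did, which gave 6 genes. Of these, ARSB and HPSE also had windows without it. The share of all promoters given above is per window, so it is no yardstick for this count of genes. In those 6 genes 3 values were higher and 3 lower (median -0.01). In the other 14, 8 were higher and 6 lower (median 0.02). These are signs of differences of which 0 passed the threshold. GAA, whose groups overlapped, and NEU1 were printed above as examples of opposite signs. Whether the letters go with a direction was not tested.

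The list of other receptors, adaptors and membrane proteins on the route to the lysosome was hardly covered. Of 34 sought 4 were measured, the membrane proteins LAMP1 and LAMP2, the chaperone CANX and the endocytic receptor MRC2, none of which sorts enzymes by the tag. Of these 2 had higher and 2 lower values. Their median was -0.09, and 0 passed the threshold. Of proteins with a domain like that of the receptors, 4 were sought and 0 measured. The lysosomal membrane protein LAMP2 had probe sets for different splice forms, told apart by their accessions. The LAMP-2A set read 8.81, 8.79 and 8.83 with doxycycline and 8.72, 8.49 and 8.43 without. All arrays with doxycycline were above the rest, at a difference of 0.26 (SE 0.08; limma, adjusted p = 0.478). The LAMP-2B set read 9.71, 9.59 and 9.88 with doxycycline and 9.90, 9.44 and 10.45 without. Its groups overlapped, and its difference of -0.20 (SE 0.26) turned to 0.06 without the array standing apart, so the opposite signs of the splice forms rest on that array.

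LAMP1, the other abundant lysosomal membrane protein, was at 0.03 and at -0.07 without that array. CANX, a lectin chaperone of the endoplasmic reticulum, was at -0.22 and -0.01 without it. MRC2, an endocytic receptor of the mannose receptor family, was at 0.10 and -0.05 without it. LAMP1 also turned to -0.02 without replicate 3 of the cells given doxycycline, to -0.0078 after renewed quantile normalization and to -0.05 with array weights, so it has no settled sign. IGF2R was at -0.27 without the array standing apart. It was selected on its difference in these arrays and its groups were separate, so its kept sign is no result beside these genes.

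As the receptor that removes IGF2, IGF2R was also set beside the insulin-like growth factor system, of which 7 of 16 genes were measured. Of these 4 had higher and 3 lower values. Their median was 0.02, and 0 passed. IGF1R, the signalling receptor for IGF1 and IGF2, was at -0.33 (SE 0.22), the same size as IGF2R but with overlapping groups. It read 7.68, 7.45 and 7.66 with doxycycline and 7.88, 7.52 and 8.38 without, and was at -0.11 without the array standing apart. The ligand IGF2 read 10.04, 9.84 and 10.25 with doxycycline and 9.78, 10.35 and 9.43 without, a wide overlap with a difference of 0.19 (SE 0.25) that was -0.02 without that array. IGF1 was dim at a mean of 6.24, under the lower quartile of 6.88 of all probe set means, and was at -0.06.

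Of 13 other proteins that bind IGF2R or are activated or cleared by it, 3 were measured. LIF, a cytokine that carries the tag and is taken up through the receptor, read 10.79, 10.83 and 11.12 with doxycycline and 11.52, 11.47 and 11.18 without. The groups were separate by a small margin, at a difference of -0.48 (SE 0.13; limma, adjusted p = 0.477) that was -0.59 without the array standing apart. The latent form of TGFB1 can bind the receptor through the same tag. TGFB1 was at 0.47 (SE 0.27) with overlapping groups, and the dim TGFB2 at -0.05 with separate groups. Of these 3 genes 1 had a higher value and 2 had lower values. The median was -0.05, and 0 passed.

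The named genes whose levels followed IGF2R most closely were found by Pearson's r over the 6 arrays among 926 other genes, each by its brightest probe set. The group difference itself and the array that stood apart feed this measure, so it is a description; 36 genes had r above 0.9 and 27 below -0.9. MUC20, a mucin, had r = 0.97, KLRK1, an activating receptor of killer cells, 0.97, CHST3, a chondroitin sulphotransferase, 0.95, CLEC4A, a C-type lectin, 0.95, and UGT2B17, a glucuronosyltransferase, 0.95. MUC20, CLEC4A and UGT2B17 were dim. Their highest readings on any array were 6.75, 6.72 and 6.46, under the lower quartile of 6.88 of all probe set means. MUC20 and UGT2B17 varied by only 0.06 and 0.07 log2 units over all arrays, and UGT2B17 has close paralogs that may share its probes. KLRK1 followed IGF2R also within the groups, with r = 0.94 for deviations from the group means, and had a difference of -0.32.

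Opposite to IGF2R ran NRG1, a neuregulin, at r = -0.98, CD58, an adhesion molecule, at -0.97, CHST1, a keratan sulphotransferase, at -0.97, PSENEN, a gamma-secretase subunit, at -0.97, and FGF18, a fibroblast growth factor, at -0.97. NRG1, the gene with the lowest r, differed by 0.51 and CD58 by 0.64, while CHST1 differed by 0.03 and varied by only 0.04 over all arrays. Without the array standing apart r was -0.97 for NRG1 and 0.95 for MUC20 over 5 arrays. Among the lysosomal enzymes NEU1 had r = -0.96, IDS -0.95 and NAAA -0.95.

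**Figure D4:**
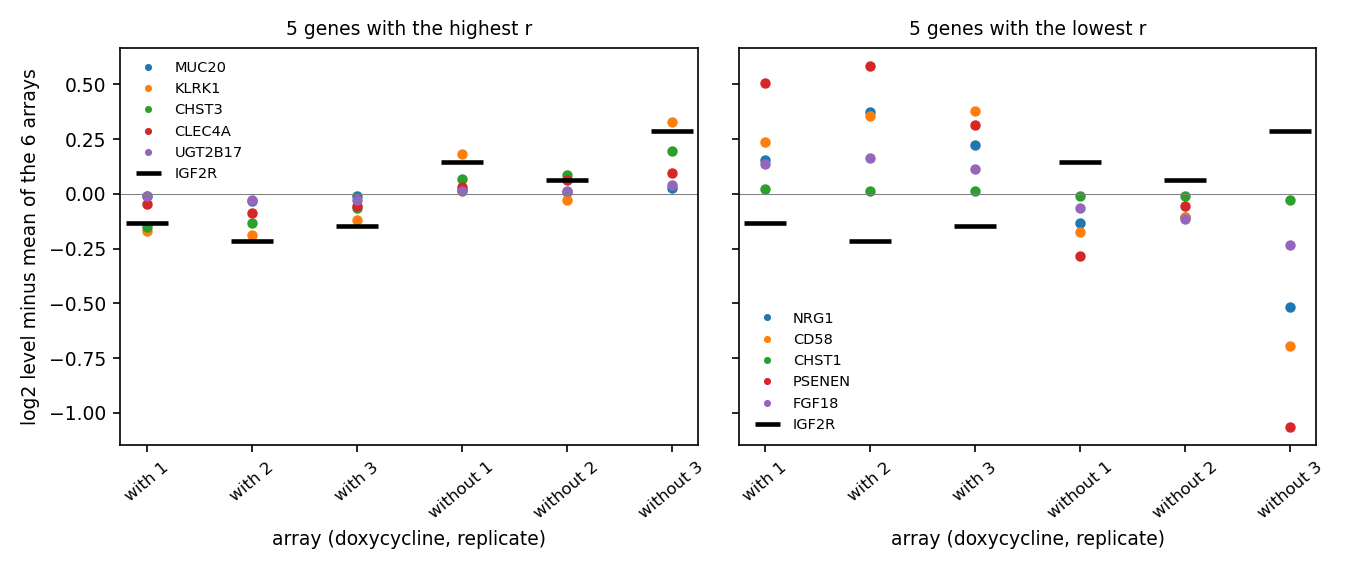
Log2 level minus the mean of the 6 arrays (vertical axis) on each array (horizontal axis) for the 5 genes with the highest r with IGF2R (left) and the 5 with the lowest (right), with IGF2R as black bars in both panels. On the left the levels with doxycycline lie below those without, and on the right above; replicate 3 without doxycycline holds the most extreme value of IGF2R and of most of these genes.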

How the data were processed

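The data are 6 single-colour arrays of biotin-labelled cRNA from total RNA. The deposited table holds log2 values of 1259 probe sets that the authors made with RMA, a method of background correction, quantile normalization and probe summary (version unstated), per the submitters' processing notes. The lower quartile of the arrays lay between 6.85 and 6.89 log2 units and the median between 7.61 and 7.65. Neither scanner files nor detection calls were used. Names came from the RefSeq accession without version (GRCh38.p14 table); 1043 (82.8%) had 1 symbol, covering 927 genes.

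Groups were taken from the sample titles. Differences, SEs and 95% intervals came from limma 3.58.1 in R 4.3.3 (lmFit, eBayes, 2 groups, no block, no filter), with Benjamini-Hochberg adjustment over 1259 probe sets and a threshold of 0.05. Where a gene had several probe sets, the brightest stood for it. Precision is limited by the number of arrays. The fit was tested on simulated data with independent noise, no array standing apart and changes larger than the IGF2R difference. That test therefore gives no assurance for a difference of the size of IGF2R in these arrays. Members and gene lists were chosen with earlier results of these data known. Named genes were the members, ACVR2A, TGFBR2, AIM2, examples set per list and the 3 genes per list with the smallest raw p. The 5 genes at each end of r with IGF2R were also named, and others are marked. A gene of the enzyme list is not reported by name, though the counts include it. Lists were described by counts and medians, without a set test.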

Additional observations from a re-analysis of the deposited data

How the results depend on the processing

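The IGF2R difference was below 0 under each of the 12 alternatives computed for it and stayed within 1 SD between replicates of -0.33. Most of these alternatives could not have changed its sign. A mean-variance trend, the replicate block and the removal of dim probe sets leave a difference of group means as it is. Leaving out 1 array could not reverse the sign, because the groups were separate. It was -0.31 with arrays centred on their medians, -0.30 after renewed quantile normalization and -0.30 with array weights. Leaving out 1 array at a time gave -0.38 to -0.27. With the replicate number as a block the IGF2R difference was -0.33 and 0 probe sets passed. Same-numbered arrays did not deviate together (correlations -0.147, -0.043 and -0.157). With 3 arrays a group these values cannot settle whether the numbers pair cultures or array runs. The count of probe sets past the threshold was 0 in every alternative except array weights, where it was 1; leaving out 1 array gave 0 to 0. At an unadjusted p under 0.05 the count ran from 45 (without replicate 1 of the cells given doxycycline) to 258 (without replicate 2 of those not given it), and was 246 with array weights and 53 without replicate 2 of those given doxycycline. Of 56 other genes followed, 21 changed sign in at least 1 alternative, among them LAMP1, LAMP2, MRC2, IGF2 and HEXA; NEU1, IDS, GLA, GAA, LIF and IGF1R did not. The planned contrast of IGF2R with the other members could not be computed, since no other was measured, and the mean of all probe sets of a gene is the same value for IGF2R. Without the dim probe sets several of the genes followed drop out, among them IGF1, TGFB2 and VCAM1, and 29 enzyme genes remain. No detection calls were used, so the part of background in dim values is unknown.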
